A study of Mus musculus with 6 samples.

Results

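Replication-dependent histone genes encode the core histones H2A, H2B, H3 and H4 that package newly made DNA. They are short genes without introns, most of their transcripts end in a stem-loop in place of a poly(A) tail, and they lie in dense clusters in which many H2A and H2B genes face each other across a common promoter. Their transcription rises in S phase and is driven by the coactivator NPAT in a nuclear compartment, the histone locus body, while in a mature retina most neurons have left the cell cycle. The genes described here are the protein-coding genes of the RefSeq gene table (assembly GRCm38.p6, the same chromosome coordinates as mm10) whose symbols start with H2ac, H2bc, H3c or H4c. No gene of the table had a symbol starting with Hist1h, Hist2h, Hist3h or Hist4h, the older names. This gave 57 of 21900 protein-coding genes, with 17 for H2A, 16 for H2B, 12 for H3 and 12 for H4.

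Chromatin of mouse retina was immunoprecipitated with a rabbit antibody against the clock transcription factor BMAL1 and sequenced. Wild-type mice gave 3 libraries (control 1 to 3) and mice labelled Bmal1 CKO gave another 3 (Bmal1 CKO 1 to 3), all of strain C57BL/6, weaned at P20 and otherwise untreated. The study compared wild-type with Bmal1 CKO mice. The sources used here do not give age at collection, time of day, the Cre driver of the knockout or the cells in which it acts, and peak lists carry no expression values or deletion reads against which tissue or genotype could be checked. Each library has 1 deposited peak list, with 179475, 410 and 372 peaks in control 1 to 3 and 1444, 138254 and 519 peaks in Bmal1 CKO 1 to 3. Each genotype thus had 1 long list, control 1 or Bmal1 CKO 2, and 2 short ones. The background recovered from the deposited values was 3.46 and 5.83 fragments per base in the long lists, 2.78 in Bmal1 CKO 1 and 0.560 to 0.852 in the other 3, so that depth differed between libraries of one genotype as well.

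Histone genes carried peaks in the long list of each genotype and nearly none in the short lists. A gene was counted when a peak's summit, its highest point, lay within 1 kb of either end of the gene (an end peak). Control 1 had an end peak at 49 of the 57 histone genes (86.0%; 95% exact binomial interval 74.2% to 93.7%), where 69.5% of all protein-coding genes had one. Bmal1 CKO 2 had one at 44 of 57 (77.2%; 64.2% to 87.3%), where 58.9% of all protein-coding genes did. Control 2 had an end peak at 1 histone gene, H3c6, against 0.0594% of all protein-coding genes. Control 3, Bmal1 CKO 1 and Bmal1 CKO 3 had none at a histone gene, against 0.0594%, 0.342% and 0.105% of all protein-coding genes. In both long lists the share of histone genes was above that of all genes. These intervals cover counting error over genes only, and neighbouring histone genes often counted the same peak.

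Most histone genes, 42 of 57 (73.7%), were called in both long lists, against 54.7% of all protein-coding genes. Another 7 had one in control 1 and not in Bmal1 CKO 2 (12.3%, against 14.8% of all genes). These were H2ac22, H2bc22, H2ac24, H2bc9, H3c4, H2bc4 and H3c2, with control 1 folds from 3.81 at H2bc4 to 5.63 at H3c2. H2bc13 and H2ac13, which share 1 peak, had one in Bmal1 CKO 2 and not in control 1 (3.51%, against 4.22%). The remaining 6 had none in any library (10.5%, against 26.3% with none in either long list).

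Most histone genes are short, so both of their ends fall into 1 window and offer less room for a peak than a long gene does. A few are annotated as long, such as H2bc22 with 14079 bp and H2bc6 with 37455 bp. Overlapping windows were merged, also those of neighbouring genes, and then held 1.97 kb per histone gene and 3.62 kb per protein-coding gene. Counted per length of window, control 1 had 410 summits per Mb at histone genes and 237 at all genes, and Bmal1 CKO 2 had 383 and 196. With the start of the gene alone, which gives every gene the same window, 43 of the 52 histone genes whose strand is in the table (82.7%) had a peak in control 1 and 38 (73.1%) in Bmal1 CKO 2. The same held for 64.6% and 55.5% of all protein-coding genes with a strand. In the short lists H3c6 in control 2 was the only histone gene with a start peak, where 0.0400% of all genes with a strand had one. That share was 0.0400% in control 3, while Bmal1 CKO 1 had 0.200% and Bmal1 CKO 3 had 0.0858%.

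**Figure D1:**
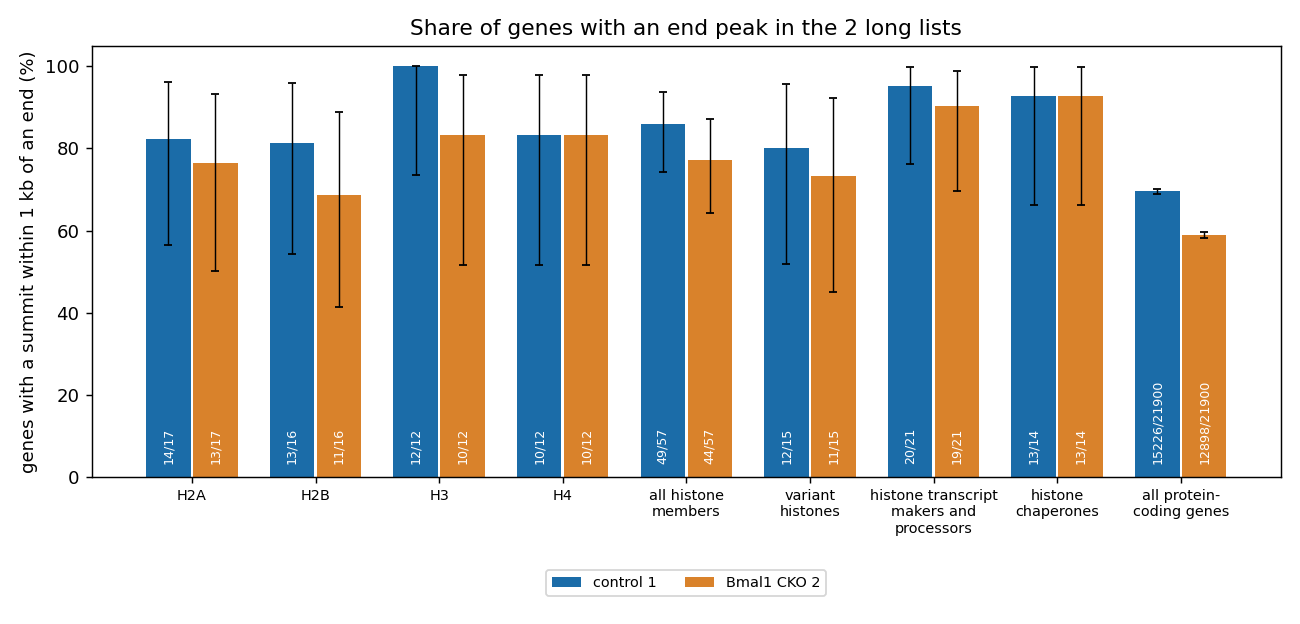
Percent of genes with a summit within 1 kb of an end (vertical axis) in control 1 and Bmal1 CKO 2, for the genes of each core histone, all 57 histone genes, 3 lists of related genes and all protein-coding genes. Bars carry the counts, error bars are 95% exact binomial intervals, and the histone genes reach 86.0% and 77.2% where all genes reach 69.5% and 58.9%.

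By histone, H3 genes had an end peak most often in control 1. All 12 H3 genes had one there, and 10 of 12 in Bmal1 CKO 2. Of the 12 H4 genes, 10 had one in each of these libraries. H2A genes had one at 14 and 13 of 17, and H2B genes at 13 and 11 of 16. Over all protein-coding genes the shares were 69.5% in control 1 and 58.9% in Bmal1 CKO 2. With 12 to 17 genes per histone these shares have wide, overlapping intervals, as the plot of shares shows, and no order among the 4 histones can be read from them.

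The median fold enrichment at histone genes was above that over all genes in both long lists. Fold enrichment is the authors' value at the summit relative to the local background of the same library, and it was compared only within a list. The highest end fold of the 49 histone genes in control 1 had a median of 4.49 (range 3.19 to 12.08), and over all genes with an end peak the median was 3.93. In Bmal1 CKO 2 the 44 histone genes had a median of 3.62 (range 2.57 to 6.75), against 3.10. End peaks with a fold of at least 4 were found at 40 of the 57 histone genes (70.2%) in control 1, against 33.3% of all protein-coding genes. In Bmal1 CKO 2 they were found at 17 (29.8%), against 9.11%. With peaks of a −log10 q-value of 5 or more, 45 histone genes (78.9%, against 52.7% of all genes) remained in the control 1 count and 35 (61.4%, against 33.2%) in that of Bmal1 CKO 2. The peaks were also narrow: the 46 distinct end peaks of histone genes in control 1 had a median width of 355 bp, against 437 bp for all end peaks, and the 43 in Bmal1 CKO 2 had 300 bp, against 381 bp. The local background under them was lower as well, with medians of 5.49 and 9.08 fragments against 6.72 and 9.66. The stack of fragments at the summit was not higher, with medians of 25 and 31 against 28 and 32. The part of the lower background in the higher folds was not tested.

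**Figure D2:**
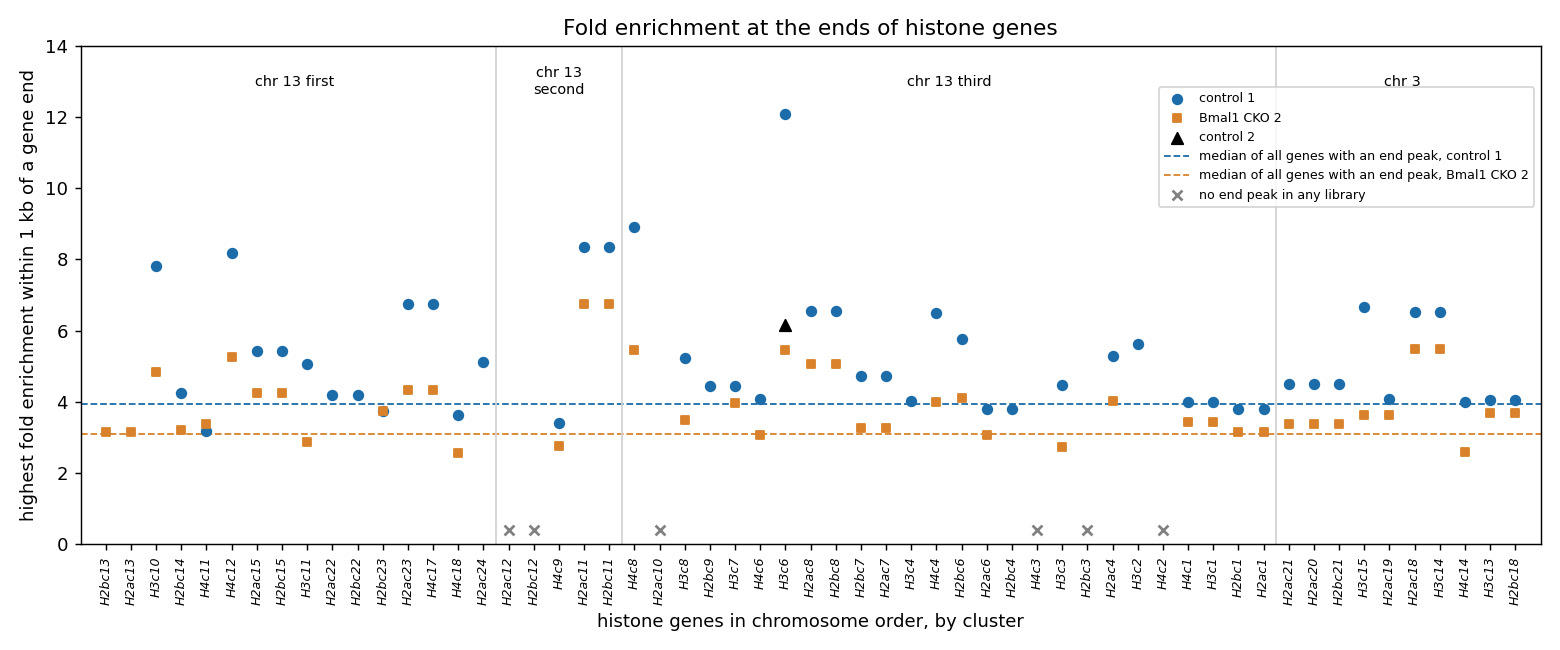
Highest fold enrichment within 1 kb of a gene end (vertical axis) at each of the 57 histone genes in chromosome order, by cluster (horizontal axis), in control 1, Bmal1 CKO 2 and control 2. Dashed lines mark the medians of all genes with an end peak (3.93 and 3.10), crosses the 6 genes without an end peak, and H3c6 stands highest at 12.08 in control 1.

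H3c6 (older symbol Hist1h3e, NCBI gene 319151), which encodes histone H3, had the highest fold of all histone genes in control 1. It lies on the minus strand of chromosome 13, at 23561475 to 23562385. In control 1 its summit at 23562257 had 57 stacked fragments over a background of 3.80 and thus a fold of 12.08, and only 5 of the 15226 genes with an end peak there had a higher fold. In Bmal1 CKO 2 the summit lay at 23562261, with a fold of 5.47 from 41 fragments over 6.68, and 176 of 12898 genes had a higher fold. In control 2 the summit lay at 23562410, with a fold of 6.17 from 9 fragments over 0.62 and a −log10 q-value of 4.46. Control 3, Bmal1 CKO 1 and Bmal1 CKO 3 listed no peak at H3c6. The summits in the long lists lay inside the gene, 128 and 124 bp downstream of its start, and the one in control 2 lay 25 bp upstream of it. The control 2 peak (23562235 to 23562434) lay within the bounds of the control 1 peak (23561827 to 23562542). H3c6 was thus called in 2 of 3 controls and 1 of 3 CKO libraries, and all lists without it were short ones. The control 2 call is lost at a −log10 q-value limit of 5.

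The promoters of 5 genes are given below from the RefSeq promoter table (GRCm38.p6), from 250 bases before the start to 50 after it, 5′ to 3′ on the strand of the gene. They are those of H3c6, of H2ac11, whose peak is shared with H2bc11 and was the highest of the divergent pairs, of H3c10 and H4c8, the next highest H3 gene and the highest H4 gene in control 1, and of H2ac12, which had no end peak. Capitals mark matches, on either strand, to CCAAT (bound by NF-Y), TATAAA (the TATA box), ATTTGCAT (the octamer bound by OCT1) and the E-box CACGTG or its variant CACGTT.
H3c6, chr13:23562336-23562635, minus strand: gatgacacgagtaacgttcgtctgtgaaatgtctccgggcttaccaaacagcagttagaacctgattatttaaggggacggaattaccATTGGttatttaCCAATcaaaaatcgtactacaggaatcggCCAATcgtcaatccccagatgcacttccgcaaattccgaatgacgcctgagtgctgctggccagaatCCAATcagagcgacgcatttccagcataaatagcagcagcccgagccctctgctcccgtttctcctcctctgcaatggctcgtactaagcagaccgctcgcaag
H2ac11, chr13:22042900-22043199, minus strand: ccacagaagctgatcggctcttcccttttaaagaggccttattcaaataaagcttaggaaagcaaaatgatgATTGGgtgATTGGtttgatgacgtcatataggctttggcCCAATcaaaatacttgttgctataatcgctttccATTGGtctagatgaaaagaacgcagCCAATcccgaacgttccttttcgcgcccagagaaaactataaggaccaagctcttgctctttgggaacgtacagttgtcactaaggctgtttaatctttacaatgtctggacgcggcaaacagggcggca
H3c10, chr13:21717378-21717677, plus strand: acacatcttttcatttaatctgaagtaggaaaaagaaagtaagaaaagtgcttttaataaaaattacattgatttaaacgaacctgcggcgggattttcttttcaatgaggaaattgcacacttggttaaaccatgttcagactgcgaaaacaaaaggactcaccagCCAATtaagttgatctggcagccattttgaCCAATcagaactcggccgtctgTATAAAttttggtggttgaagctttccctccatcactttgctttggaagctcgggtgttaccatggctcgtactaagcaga
H4c8, chr13:23530794-23531093, plus strand: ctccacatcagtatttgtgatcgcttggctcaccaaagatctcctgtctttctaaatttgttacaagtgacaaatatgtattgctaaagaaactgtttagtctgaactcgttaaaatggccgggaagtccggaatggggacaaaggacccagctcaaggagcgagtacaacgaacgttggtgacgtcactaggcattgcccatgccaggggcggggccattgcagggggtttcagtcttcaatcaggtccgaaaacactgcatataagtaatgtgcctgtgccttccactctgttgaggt
H2ac12, chr13:22035594-22035893, minus strand: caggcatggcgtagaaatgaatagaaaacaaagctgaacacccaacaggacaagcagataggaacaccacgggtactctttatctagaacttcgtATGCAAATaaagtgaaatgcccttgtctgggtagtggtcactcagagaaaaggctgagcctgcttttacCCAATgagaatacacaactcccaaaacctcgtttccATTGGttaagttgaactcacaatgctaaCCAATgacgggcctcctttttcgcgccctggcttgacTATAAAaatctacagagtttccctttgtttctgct

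The H3c6 window held 4 CCAAT matches, that of H2ac11 held 5, that of H3c10 held 2 and a TATA box, and that of H4c8 held none of these motifs. The window of H2ac12, with no peak, held an octamer, 3 CCAAT matches and a TATA match that lies 15 bases past the annotated start. Of the 5 windows, only that of H3c6 contained a summit, that of control 2 at base 226. The long-list summits of H3c6, H3c10 and H4c8 lay downstream of the windows, inside the genes.

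The promoter table held windows for 52 of the 57 histone genes, 53 windows in all since H2bc6 has 2. CCAAT was found in 45 of 53 windows (84.9%) and in 38.2% of the 21263 windows of protein-coding genes of the same length. By histone it was in all 17 H2A, 15 H2B and 10 H3 windows and in 3 of 11 H4 windows. TATAAA was found in 30 (56.6%, against 12.6%). ATTTGCAT was found in 6 H2A and 7 H2B windows and in no H3 or H4 window (24.5% of all 53, against 1.66%), and windows of facing genes share most of their bases. CACGTG, the E-box to which BMAL1 binds together with CLOCK, was in 0 of 53 windows, against 7.84%, and CACGTT was in 2 (3.77%, against 4.68%). A window without these letters says nothing about binding elsewhere, and most long-list summits lay outside the windows.

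Promoters of histone genes were poorer in G and C than most. Their windows had a median of 45% G and C (range 33.3% to 72.7%), against 56.3% over all protein-coding windows. Genes were put into 3 groups of similar size by this content. In the lowest group (12.3% to 51.3%), 34 of 43 histone genes (79.1%) had a start peak in control 1, where 34.7% of all genes did. In Bmal1 CKO 2, 29 of 43 (67.4%) had one, against 30.3%. All 9 histone genes with richer promoters had a start peak in both lists, against 74.9% and 86.8% of genes in the middle and highest groups in control 1 and 63.2% and 75.0% in Bmal1 CKO 2. The shares of low-content histone genes thus lay between those of all genes in the middle and the highest group.

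The histone genes formed 4 clusters, taking genes less than 200 kb apart as 1 cluster, and each was denser in peaks than the genome in both long lists. The first on chromosome 13 (21715711 to 21833475, 16 genes) held 20 peaks in control 1, or 170 per Mb, and 18 in Bmal1 CKO 2, or 153 per Mb. The second (22035122 to 22043658, 5 genes) held 2 peaks in each list, or 234 per Mb. The third and longest (23531044 to 23934913, 26 histone genes among 37 protein-coding ones) held 55 and 60 peaks, or 136 and 149 per Mb. The cluster on chromosome 3 (96219885 to 96270192, 10 genes) was the densest in control 1, with 13 peaks, or 258 per Mb, and had 11, or 219 per Mb, in Bmal1 CKO 2. Over the genome the lists held 65.9 and 50.8 peaks per Mb. As a whole the clusters had 155 and 157 peaks per Mb, which is 2.35 and 3.09 times the density of each list. They are also dense in genes, with 91.6 to 586 protein-coding genes per Mb. Windows at the ends of all protein-coding genes held 237 and 196 summits per Mb, more than the clusters as a whole. The part of gene density in the cluster densities was not tested. The only peak of a short list inside a cluster was that of control 2 at H3c6. Exact Poisson intervals of the cluster densities overlapped between the 2 lists and among the clusters. That of the second cluster, with 2 peaks, ran from 28.4 to 846 per Mb. It included the genome density of each list, so this cluster is not shown to be denser than the genome.

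**Figure D3:**
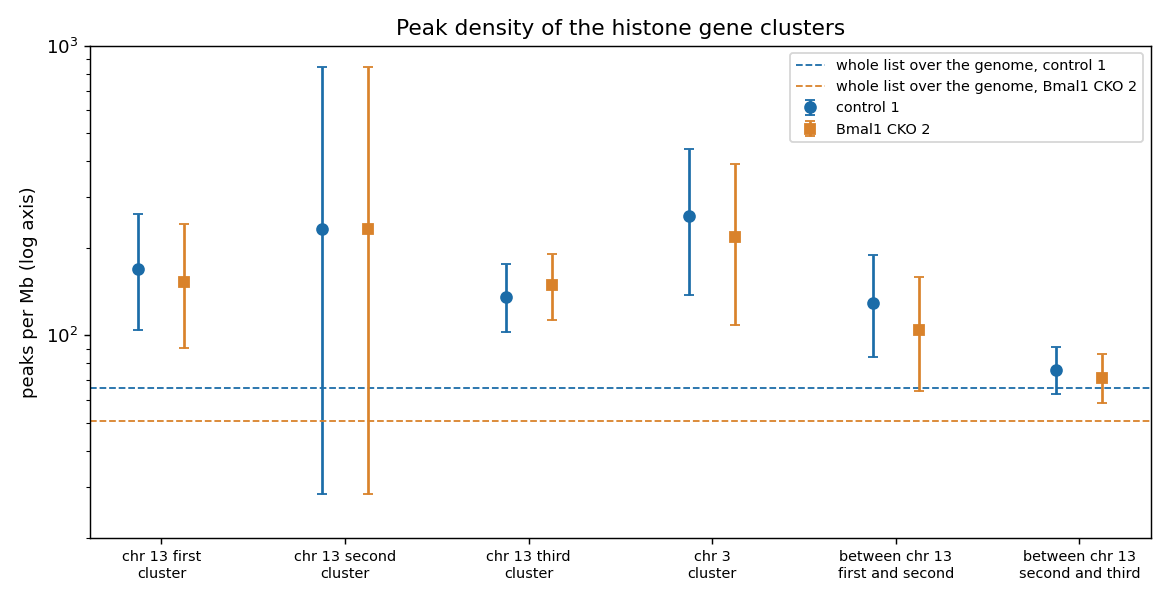
Peaks per Mb (log axis) in each histone gene cluster and in the 2 intervals between the chromosome 13 clusters, in control 1 and Bmal1 CKO 2. Error bars are 95% exact Poisson intervals, dashed lines are the whole lists over the genome (65.9 and 50.8), and the interval with the vomeronasal receptor genes lies closest to those lines.

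Between the second cluster of chromosome 13 and the third lie 1.49 Mb with 41 protein-coding genes, 36 of them Vmn1r genes, which encode vomeronasal receptors. There the density was 76.0 and 71.3 peaks per Mb, or 1.15 and 1.40 times that of the whole list. The 202 kb between the first and second clusters, with 4 protein-coding genes, had 129 and 104 peaks per Mb. That was 1.96 and 2.05 times the whole list. Its Poisson intervals (84.2 to 189 and 64.5 to 159) overlapped those of the clusters. Peaks covered 2.51% and 2.29% of the bases of the Vmn1r interval. They covered 5.94% and 4.65% of the first cluster, 4.91% and 4.89% of the third and 11.1% and 8.58% of the chromosome 3 cluster.

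In the first cluster the highest folds were at H4c12 and H3c10, which encode H4 and H3. H4c12 had 8.17 in control 1 (56 fragments over 5.98) and 5.25 in Bmal1 CKO 2 (53 over 9.28). H3c10 had 7.82 (58 over 6.54) and 4.83 (55 over 10.60), at summits 1 base apart, 21717963 and 21717964. A peak over H4c17, counted also at its neighbour H2ac23, had 6.76 and 4.34. Next came H2ac15 and its facing neighbour H2bc15, both with 5.44 and 4.24. These folds came from different places, a summit over H2ac15 in control 1 and one over H2bc15 in Bmal1 CKO 2. These genes led the cluster in both lists. The lowest folds of the cluster were 3.19 at H4c11 in control 1 and 2.57 at H4c18 in Bmal1 CKO 2, so that folds within 1 cluster differed by more than 2 times.

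The second cluster held 1 of the highest shared peaks, 1 peak of modest fold and a pair without a listed peak. H2ac11 and H2bc11, which encode H2A and H2B, shared 1 peak with folds of 8.36 in control 1 (54 fragments over 5.58) and 6.75 in Bmal1 CKO 2 (66 over 8.92). In Bmal1 CKO 2 only 32 of 12898 genes had a higher end fold, and 80 of 15226 in control 1. H4c9, the H4 gene beside this pair, had 3.41 and 2.77. H2ac12 and H2bc12, a pair built in the same way, had no end peak in any library, and their nearest summits in the long lists lay 3392 to 5410 bp away.

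In the third cluster H4c8, at its first end, followed H3c6. H4c8 had a fold of 8.91 in control 1 (58 fragments over 5.62) and 5.45 in Bmal1 CKO 2 (59 over 10). The pair H2ac8 and H2bc8 had 6.54 and 5.07, H4c4 had 6.49 and 4.0, and H2bc6 had 5.76 and 4.12. H2bc6 is annotated over 37455 bp, and these summits lay 731 and 615 bp upstream of its start, at the linker histone gene H1f4. At the other end of the cluster H2bc1 and H2ac1, whose products are histones of male germ cells, shared a peak in both long lists, with folds of 3.79 and 3.16. H2ac10, H4c3, H2bc3 and H4c2 of this cluster had no end peak. Summits lay 1174 to 1990 bp from an end of the first 3 of them and over 4 kb from H4c2 (4132 bp in control 1 and 4065 bp in Bmal1 CKO 2).

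All 10 genes of the chromosome 3 cluster had an end peak in both long lists, against 54.7% of all protein-coding genes. Several of the 10 counted the same summit, so these are not 10 separate calls. H2ac18 and H3c14 shared a summit 158 bp upstream of H3c14 in control 1 and 151 bp in Bmal1 CKO 2, with folds of 6.52 (62 fragments over 8.66) and 5.48 (72 over 12.32), the tallest stacks at any histone gene. H3c15 had 6.67 and 3.62. H2ac19 had 4.07 at a summit of its own in control 1. It had 2 end peaks in Bmal1 CKO 2, of which the higher, at 3.62, was that of H3c15. H2ac21 and H2ac20, which face each other tail to tail, had 4.49 and 3.38 at 1 common summit. H3c13 and H2bc18 counted the same summits, at 4.05 and 3.69, which lay over H2bc18. H3c15 and H3c14, like H2ac19 and H2ac18, are near copies: 74.1% and 67.7% of the stretches of 50 bases in their promoter windows occur also in the window of the copy.

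Such copies account for over 50% of the stretches of 50 bases in 9 of the 53 promoter windows. The others are H4c17 and H4c18, with 94.0% of stretches in common, and H2bc23, H2ac23 and H2ac24, with 60.2% to 73.3%. All 9 genes had a start peak in control 1, where 64.6% of all genes with a strand had one. In Bmal1 CKO 2 all but H2ac24 had one, against 55.5%. The sources used here do not say how reads that fit several places were treated, so folds at these genes are uncertain as to which copy they belong to. The coding sequences of histone genes are also alike, and most summits lay inside these genes.

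Facing H2A and H2B genes mostly counted the same peak in the long lists, and few of these peaks covered both starts. With both strands in the table, 9 pairs of histone genes faced each other with starts at most 1 kb apart, all of 1 H2A and 1 H2B gene and with 164 to 281 bp between the starts. A pair was taken to share a peak when 1 summit lay within 1 kb of both starts. With starts this close, nearly any peak near 1 gene of a pair met this, so sharing says little beyond the presence of a peak. In each long list 14 of the 18 genes in these pairs had an end peak, where 69.5% of all genes had one in control 1 and 58.9% in Bmal1 CKO 2. All 14 were in pairs that shared one. In control 1, 7 of the 9 pairs (77.8%; 40% to 97.2%) shared a peak, and 91.6% of the 548 divergent pairs of protein-coding genes did. In Bmal1 CKO 2 it was also 7 of 9, against 87.6%. The other 4 libraries had 0 shared peaks in the histone pairs and in all 548. A peak that covered both starts was found at 0 of 9 histone pairs in control 1, against 69.7% of all pairs, and at 2 of 9 (22.2%) in Bmal1 CKO 2, against 65.0%. The 2 covered pairs were H2bc23 with H2ac23 and H2bc7 with H2ac7. All pairs had a median of 101 bp between starts, histone pairs 180 bp, and end peaks were narrower at histone genes; the part of spacing and width in this difference was not tested.

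The strongest shared summit lay to one side of both starts, over a gene or just past it, in 6 of 7 pairs in control 1 and in 7 of 7 in Bmal1 CKO 2. Over all divergent pairs that shared a peak it lay between the starts in 19.9% and 20%, so most of these also had it to one side, and the histone counts do not stand apart from them. At H2ac11 and H2bc11 the summits, 22043306 and 22043295, lay over H2bc11, 108 and 97 bp past its start. At H2ac8 and H2bc8 they lay over H2bc8, 124 and 97 bp past its start. At H2bc7 and H2ac7 they lay over H2bc7, with folds of 4.73 and 3.26. At H2ac15 and H2bc15 the side changed between lists, with the summit over H2ac15 in control 1 and over H2bc15 in Bmal1 CKO 2. At H2bc1 and H2ac1 they lay over H2ac1. At H2bc23 and H2ac23, with a fold of 3.75 in both lists, the control 1 summit lay on the first base of H2ac23 and that of Bmal1 CKO 2 just inside it. H2ac12 and H2bc12 shared no peak in either list. H2ac22 with H2bc22 shared one only in control 1 and H2bc13 with H2ac13 only in Bmal1 CKO 2. In 4 further neighbouring pairs the strand of 1 gene is not in the table, and 3 of these shared a peak in control 1 and 2 in Bmal1 CKO 2. No share of all such pairs is at hand.

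Summits at histone genes lay mostly inside genes, as did those at genes in general. Of the 46 distinct end peaks in control 1, 36 (78.3%) had their summit inside a histone gene, 2 between facing starts and 8 elsewhere. Of the 43 in Bmal1 CKO 2, 29 (67.4%) lay inside a histone gene. Counting any protein-coding gene, the shares were 80.4% and 67.4% for end peaks of histone genes and 75.7% and 72.2% for those of all genes. Measured from the start, the median position was 128 bp downstream in control 1 and 101 bp in Bmal1 CKO 2, and over all protein-coding genes it was 138 and 117 bp. Upstream of the start lay 35.8% and 36.7% of the summits within 1 kb of a histone start, against 30.1% and 33.8% over all genes. The 200 bp upstream of the start held 9.43% in control 1, against 16.5% over all genes, and 14.3% in Bmal1 CKO 2, against 19.1%. The 200 bp downstream of it held 30.2%, against 26.8%, and 32.7%, against 24.6%. In the promoter window printed above, 8 of 53 histone gene and summit combinations fell in control 1 (15.1%, against 25.4% over all genes) and 11 of 49 in Bmal1 CKO 2 (22.4%, against 28.6%).

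**Figure D4:**
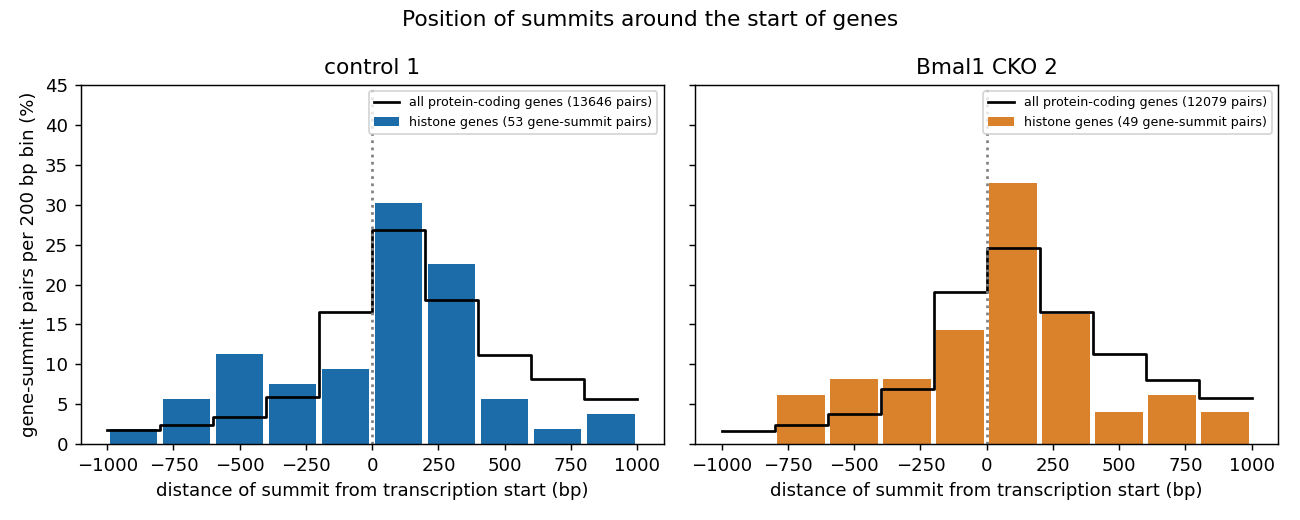
Distance of summits from the transcription start in bp (horizontal axis, negative is upstream) for histone genes (bars) and all protein-coding genes (line), as percent of the gene and summit combinations within 1 kb, in bins of 200 bp. The bin just downstream of the start is the highest, with 30.2% in control 1 and 32.7% in Bmal1 CKO 2 for histone genes.

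The 2 long lists placed their summits at nearly the same bases of histone genes. At the 36 histone genes with a start peak in both lists, the closest summits of the lists lay a median of 18 bp apart, and 30 (83.3%) were within 100 bp. Over the 9033 protein-coding genes with a start peak in both, the median was 104 bp and 49% were within 100 bp. Histone peaks were also narrower and higher in fold, as given above, and the part of these features was not tested.

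Related genes outside the rule had end peaks in the long lists as well, where 69.5% of all protein-coding genes had one in control 1 and 58.9% in Bmal1 CKO 2. The table holds 10 protein-coding genes with older symbols of the Hist1h, Hist3h or Hist4h kind under other current names, among them 6 linker histone genes. Control 1 had an end peak at all 10 and Bmal1 CKO 2 at 9. H1f2, which encodes a linker histone, was the highest, with 7.54 and 4.40. H1f6, the linker histone gene of testis, had 4.32 and 3.61. Of 15 genes for variant histones, which replace the core histones in places, 12 were called in the control 1 list (80.0%) and 11 in that of Bmal1 CKO 2 (73.3%). H2az2, which encodes an H2A.Z, had 5.52 and 4.15, Cenpa, the histone H3 of centromeres, had 4.28 and 3.62, and H3f3b, which encodes H3.3, had none. Of 21 genes that drive or process histone transcripts, 20 (95.2%) and 19 (90.5%) had one. Npat, the coactivator of histone genes, had 5.94 and 5.32, and Casp8ap2, a part of the histone locus body, had 6.27 and 3.82. Slbp, whose product binds the stem-loop, had 3.41 and 3.09. Of 14 histone chaperone genes, 13 (92.9%) had one in each list, for example Asf1a with 5.25 and 4.88. None of these related genes had an end peak in a short list.

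No comparison between genotypes exceeded the spread within them. The share of histone genes with an end peak had a mean of 29.2% ± 49.1 over the 3 controls and 25.7% ± 44.6 over the 3 knockout libraries (SD, n = 3 each), a difference of −3.51 percentage points (exact two-sided permutation p = 0.70, adjusted over 3 comparisons 1.00). The density of the clusters relative to the genome was 4.6 ± 6.04 and 1.03 ± 1.78 (SD, n = 3 each), a difference of −3.57 with an exact permutation p of 0.70 (adjusted 1.00). Without control 2, whose single cluster peak gives a ratio of 11.4, that difference was −0.147. The share of divergent pairs with a common peak was 25.9% ± 44.9 in each genotype (SD, n = 3; exact permutation p = 1.00). The design allows no p under 0.10. Leaving out control 1 turned the first difference to 24.9, and leaving out either Bmal1 CKO 1 or Bmal1 CKO 3 turned it to 9.36.

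The short lists were set against the depth of their libraries. When the stack and background of each control 1 peak were scaled to the background of control 2, 5 of the 49 histone genes (10.2%) reached the lowest −log10 p-value of that list, 6.76, against 0.407% of all genes with an end peak. These were H3c6, H3c10, H4c8 and the pair H2ac11 and H2bc11, and control 2 listed H3c6 alone. Scaled to control 3, 9 genes reached the limit (18.4%, against 3.98% of all genes), and scaled to Bmal1 CKO 3, 8 did (16.3%, against 1.42%), and neither list held a histone gene. Scaled to Bmal1 CKO 1, 46 of 49 did (93.9%, against 80.9% of all genes), and its list held none of them. The peaks of Bmal1 CKO 2 gave other counts. Scaled to control 2, control 3 and Bmal1 CKO 3, 0 of its 44 histone genes reached the limit, against 0.0620%, 0.295% and 0.155% of all genes. Scaled to Bmal1 CKO 1, 27 of 44 did (61.4%, against 30.9%). Among the 372 peaks with the highest −log10 p-value of each library, which is the length of the shortest list, end peaks of histone genes were found in control 1, at H3c6 and H4c8, and in Bmal1 CKO 2, at the pair H2ac11 and H2bc11. The other 4 libraries had none, and the H3c6 peak of control 2 was not among them. No share of all genes is at hand for these strongest peaks, so the counts cannot be called high or low.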

How the data were processed

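The authors deposited 1 narrowPeak list per library from retinal BMAL1 ChIP-seq, 3 wild-type and 3 Bmal1 CKO. Trim Galore, Bowtie2, MACS2 and mm10 are named per the submitters' processing notes; the sources used here do not give versions, parameters or the use of an input. Per the file format, the authors deposited for each peak a fold enrichment (a ratio over the local background), significance as a −log10 p-value and, after correction, a −log10 q-value, and a whole-number score that was not used. Depth was recovered by solving fold (pseudocount 1) and Poisson p-value for the whole number of stacked fragments and the background. A whole number gave the deposited −log10 p-value within 0.001 for 100.0% of peaks in 5 libraries and 98.5% in Bmal1 CKO 3. This rests on how the peak caller is known to compute these values.

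Summits (column 2 plus column 10, written 1-based) were assigned to gene ends of the RefSeq table, with strand from the RefSeq promoter table, which covers 17492 of 21900 protein-coding genes. Scripts ran in Python 3.11.15 with pandas 2.3.3 and scipy 1.17.1 and were tested on simulated data. Genotypes were compared by exact two-sided permutation over 20 assignments of libraries, with Benjamini-Hochberg adjustment over 3 comparisons. Genome density used the 2722 Mb up to the last gene or peak of each chromosome. Named genes are those with an end peak in a short list, up to 5 with the highest fold per cluster and long list, up to 10 without a peak, and the pairs with none or the highest shared folds; others are named for illustration after their values were seen. The members and lists were chosen with earlier results of these data known. The labels do not tie single libraries to animals beyond naming 3 mice per genotype, so p-values measure only the spread between these libraries.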

Additional observations from a re-analysis of the deposited data

How the results depend on the processing

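The count of histone genes with an end peak depended on window and threshold. With a window of 2 kb it was 94.7% in control 1 and 93% in Bmal1 CKO 2, against 77.9% and 66.7% of all genes. With any base of the peak within the gene it was 70.2% in control 1 and 64.9% in Bmal1 CKO 2. No share of all genes is at hand for this setting, so these values cannot be called high or low. At a fold of at least 4 it was 70.2% and 29.8%, and with −log10 q-values from 5 upwards it was 61.4% in Bmal1 CKO 2 and 0 in control 2. Cluster density (155 and 157 peaks per Mb) became 99.9 and 65.5 at that q-value, with 0 in control 2 where it was 1.72, and 75.8 and 22.4 at the fold limit. The densities of the whole lists at these limits are not at hand, so the drops cannot be read as particular to the clusters. Pairs sharing a peak were 0% in control 1 and 22.2% in Bmal1 CKO 2 when the peak had to cover both starts, against 69.7% and 65.0% of all pairs. They were 33.3% in Bmal1 CKO 2 at the fold limit, for which no share of all pairs is at hand.

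Leaving out each library in turn, the difference between genotypes ran from −29.2 to 24.9 percentage points for genes, from −5.87 to −0.147 for the density ratio and from −25.9 to 25.9 points for pairs. The density ratio turned to 0.594 at the q-value limit. Same-numbered libraries correlated by −0.59, −0.60 and 0.60 in their deviations over genes. The sign followed list length alone: a long with a short list was negative, and the 2 long lists gave 0.60. These values therefore cannot tell whether the numbers pair the libraries. With a replicate block the differences stayed at −3.51, −3.57 and 0 by construction, with exact permutation p of 1.00, 0.500 and 1.00. Adding the 10 genes of older symbols (88.1% and 79.1%), the pairs of unknown strand (76.9% and 69.2%) or leaving out paired genes (89.7% and 76.9%) was chosen after seeing the data. The lists hold only peaks past their own limits, so a gene without a listed peak is not shown to lack signal. Control 2, control 3 and Bmal1 CKO 3 had backgrounds of 0.560 to 0.852 fragments per base. Scaled to these, most histone gene peaks of the long lists did not reach those limits. Scaled to Bmal1 CKO 1, with 2.78, most did, and none was listed. The cause of the missing calls was not tested for any of these short lists.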
